A study of Mus musculus with 16 samples.

Results

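The 55 genes described here encode proteins of mitosis and the spindle checkpoint: cyclins and CDK1, mitotic kinases, checkpoint and kinetochore proteins, spindle motors, condensin, and the proteins that separate sister chromatids and divide the cell. They were chosen by name for these functions, with earlier results of these data known. All 55 were found among the 25650 genes of the deposited count table. The RNA came from Ba/F3 cells, sequenced as 16 libraries; this is a mouse pro-B cell line that depends on interleukin-3 for growth. The libraries form 4 groups of 4. The first line, labelled BaF3_ChimP3V3:gp130Box1/2 and called ChimP3V3 here, was sequenced under interleukin-6 (IL-6, 100 ng/ml) and in medium. The other, labelled BaF3-gp130:IL-6R wt and called gp130:IL-6R here, was sequenced under the same dose of IL-6 and in medium. The series title describes synthetic IL-6 receptor complexes whose activity is mostly phosphorylation of STAT3; gp130 is the signalling chain of the natural receptor. The time under IL-6, the presence of interleukin-3 and whether a line was grown from 1 clone are not given in the sources used here. Nor do the labels say whether the 4 libraries of a group came from separate cultures, so p-values measure the spread between these libraries, which may be technical.

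Cells pass through mitosis once CDK1, bound to cyclin B, is switched on. The spindle checkpoint then holds the anaphase-promoting complex in check until every kinetochore is attached to spindle microtubules, after which securin and the cyclins are destroyed and the chromatids part. The RNAs of these proteins are made mostly late in the cell cycle, from G2 into mitosis, so their level in a culture follows the share of cells in that phase as well as the rate of transcription in each cell. In cultures sequenced in bulk, fewer cells in a phase and less RNA per cell cannot be told apart.

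Libraries held 1275112 to 1650348 counts, from the 3' ends of polyadenylated RNA. The members reached the test without loss: all 55 passed the filter on low counts, which left 9540 genes, and their mean levels ran from 10.1 CPM (counts relative to the scaled library total) for Cdc25c to 782 CPM for Smc4. The shares of mitochondrial and ribosomal protein RNA were larger under IL-6 in both lines. Mitochondrial genes took 1.66% to 1.75% of the counts in ChimP3V3 cells under IL-6, against 1.38% to 1.45% in medium. In gp130:IL-6R cells they took 1.43% to 1.62% under IL-6, against 1.14% to 1.19% in medium. Ribosomal protein genes took 7.33% to 7.69% in ChimP3V3 cells under IL-6, against 6.56% to 6.79% in medium, and 6.83% to 7.31% in gp130:IL-6R cells under IL-6, against 5.82% to 6.23% in medium. The part of these shares in the results below was not tested. Of 15 pro-B line markers 11 had counts, led by Csf2rb and Ptprc, while Rag1, Rag2 and Dntt were among those at 0 in all 16 libraries, and their summed level was 910 to 969 CPM (ChimP3V3, IL-6), 931 to 1005 CPM (ChimP3V3, medium), 717 to 752 CPM (gp130:IL-6R, IL-6) and 617 to 688 CPM (gp130:IL-6R, medium). Of 8 macrophage and fibroblast markers 6 had counts, with Pdgfra and Pdgfrb at 0. The summed level of the 8 in the same order was 30.7 to 40.9, 5.60 to 36.2, 12.3 to 36.4 and 13.8 to 28.8 CPM. Csf1r led them, with 385 counts over 15 libraries. Adgre1 had 62 counts under IL-6 and 65 in medium in ChimP3V3 cells, against 0 and 1 in gp130:IL-6R cells. Itgam had 33 under IL-6 and 3 in medium in gp130:IL-6R cells, against 0 in both ChimP3V3 groups.

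Under IL-6 the mitosis genes were lower in both lines, nearly all of them and with similar medians, though single members differed between the lines. In ChimP3V3 cells 52 of the 55 fell and 0 rose (edgeR quasi-likelihood test, adjusted p under 0.05 over all genes tested), where 11.4% of all genes tested fell and 16.2% rose. In gp130:IL-6R cells 52 fell and 0 rose, where 24.3% of all genes tested fell and 25.7% rose. Since the members were chosen with earlier results of these data known, their counts are a description. All 55 estimates were below 0 in both lines, 50 members fell in both, where 7.62% of all genes tested did, and 54 fell in at least 1. The median log2 change of the members was -0.50 in ChimP3V3 cells, against 0.03 over all genes tested, and -0.53 in gp130:IL-6R cells, against 0.01. Most changes were moderate: 16 members fell by at least 1.5-fold in ChimP3V3 cells, where 2.27% of all genes tested did, and 21 in gp130:IL-6R cells, where 5.90% did. The 11 that fell this far in both, where 0.744% of all genes tested did, were Aurkb, Bub1, Nuf2, Spc24, Knl1, Kif4, Kif11, Kif15, Tpx2, Hmmr and Espl1. For 51 members in each line, every library under IL-6 lay below every library in medium, where 11.5% of all genes tested did in ChimP3V3 cells and 21.1% did in gp130:IL-6R cells.

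Summed over the 55 genes, the level was 7727 ± 141 CPM under IL-6 and 10397 ± 194 CPM in medium in ChimP3V3 cells (SD, n = 4). It was 8642 ± 76.3 CPM under IL-6 and 12284 ± 92.1 CPM in medium in gp130:IL-6R cells. As a share of raw counts, before any scaling, the members held 0.759% under IL-6 and 1.06% in medium in ChimP3V3 cells, and 0.850% under IL-6 and 1.23% in medium in gp130:IL-6R cells. The groups thus kept the same order by either measure, with ChimP3V3 cells under IL-6 lowest and gp130:IL-6R cells in medium highest. Gene by gene, the lowest group mean lay in ChimP3V3 cells under IL-6 for 41 members and in gp130:IL-6R cells under IL-6 for 14. The highest lay in ChimP3V3 medium for 9 and in gp130:IL-6R medium for 46.

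**Figure D1:**
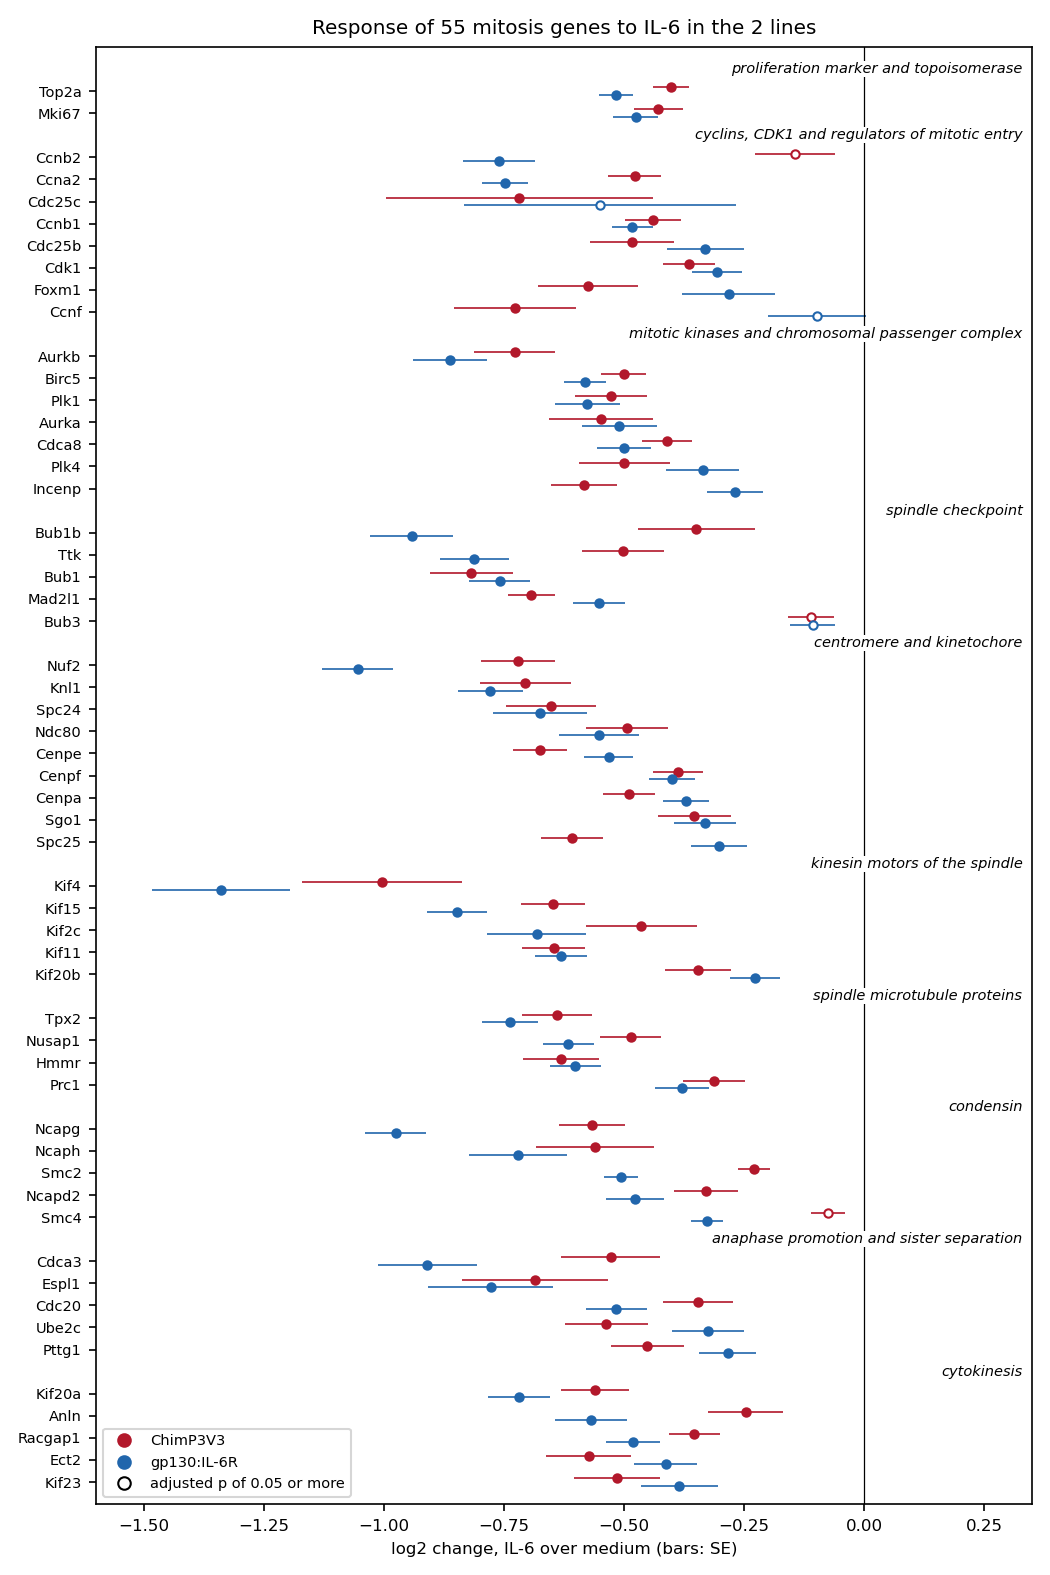
Log2 change under IL-6 (IL-6 over medium, x axis, bars SE) of the 55 genes in ChimP3V3 cells (red) and gp130:IL-6R cells (blue), grouped by role; open points have an adjusted p of 0.05 or more. All 110 points lie left of 0, and 6 are open.

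Genes of late mitosis often carry the CHR element, with the letters TTTGAA, near the start of transcription, where MuvB-based complexes (DREAM in resting cells, B-MYB and FOXM1 in dividing ones) bind, and CCAAT boxes a short way upstream, where NF-Y binds. The RefSeq promoter windows of build GRCm38.p6 (250 bases before to 50 after each annotated start) were searched on both strands. The letters sought were TTTGAA, its variants TTTAAA and TTCGAA, and CCAAT. The members were chosen as mitosis genes, so high shares may follow from that choice and cannot be read as a trait of the response. Windows were found for 46 of the 55 members, 49 windows in all, since 3 members had 2. The other 9 were Ccna2, Cdc25c, Foxm1, Aurkb, Incenp, Spc24, Tpx2, Smc4 and Kif20a. TTTGAA was present in 75.5% of the member windows, against 12.2% of the windows of genes tested and 17.9% of all 32851 windows. CCAAT was present in 73.5% of member windows, against 38.6% of windows of genes tested and 37.4% of all windows. Both stood together in 63.3% of member windows, against 5.16% and 6.95%. TTTAAA was found in 20.4% of member windows, against 8.83% and 13.2%, and TTCGAA in 10.2%, against 2.22% and 1.56%. Median GC content was 59.0% in member windows, against 61.0% in windows of genes tested and 52.7% in all windows. Among 48 matches of TTTGAA in member windows, 35 (72.9%) began no more than 50 bases before the start or after it, and 36 lay on the strand of the gene. CCAAT lay farther out, with its median match 71 bases before the start. Sites that fell in both windows of Bub3, Ect2 or Prc1 are counted in each window. Positions were not measured in the windows of other genes, so this placement cannot be set against theirs.

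The 150 bases before the annotated start are printed for 7 members, with motif letters in capitals on either strand (TTCAAA and ATTGG are TTTGAA and CCAAT read from the other strand); no matches overlapped. The first 3 show the usual arrangement in genes that fell in both lines: CDK1 itself, the anaphase activator CDC20 and separase.
Cdk1 (chr10:69352913-69353062, minus strand): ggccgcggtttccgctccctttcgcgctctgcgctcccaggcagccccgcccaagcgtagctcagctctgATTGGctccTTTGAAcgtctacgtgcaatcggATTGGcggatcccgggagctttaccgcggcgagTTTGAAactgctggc
Cdc20 (chr4:118437344-118437493, minus strand): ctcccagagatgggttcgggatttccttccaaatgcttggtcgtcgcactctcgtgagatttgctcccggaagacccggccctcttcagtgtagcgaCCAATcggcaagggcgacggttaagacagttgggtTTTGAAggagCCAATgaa
Espl1 (chr15:102296143-102296292, plus strand): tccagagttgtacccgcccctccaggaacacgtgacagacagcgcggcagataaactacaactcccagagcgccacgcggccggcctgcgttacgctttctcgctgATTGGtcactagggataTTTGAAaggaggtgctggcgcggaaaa

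The next 3 are cyclins, shown because they differ in response between the lines (Ccnb2 and Ccnf) or carry the variant letters (Ccnb1), and the last is Bub3, the checkpoint member with the smallest estimates.
Ccnb1 (chr13:100786487-100786636, minus strand): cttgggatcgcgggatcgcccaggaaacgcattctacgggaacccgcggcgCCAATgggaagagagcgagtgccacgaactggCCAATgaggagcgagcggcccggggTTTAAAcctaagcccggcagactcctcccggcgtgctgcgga
Ccnb2 (chr9:70421555-70421704, minus strand): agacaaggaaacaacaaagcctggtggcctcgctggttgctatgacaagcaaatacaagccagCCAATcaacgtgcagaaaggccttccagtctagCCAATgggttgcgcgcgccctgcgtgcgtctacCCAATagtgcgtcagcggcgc
Ccnf (chr17:24251410-24251559, minus strand): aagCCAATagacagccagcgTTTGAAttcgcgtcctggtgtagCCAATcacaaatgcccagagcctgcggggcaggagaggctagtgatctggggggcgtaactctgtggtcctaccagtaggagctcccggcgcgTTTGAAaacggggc
Bub3 (chr7:131560220-131560369, plus strand): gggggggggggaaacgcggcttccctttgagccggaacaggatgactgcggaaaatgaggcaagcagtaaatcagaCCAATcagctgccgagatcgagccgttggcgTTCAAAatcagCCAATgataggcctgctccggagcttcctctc

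TTTGAA began 15 bases before the start in Cdk1, 18 in Cdc20, 27 in Espl1, 14 in Ccnf and 43 in Bub3, where it ran on the opposite strand. Cdk1 and Ccnf had another match, 71 and 130 bases before the start. Ccnb1 had TTTAAA 42 bases before the start and CCAAT 67 and 99 bases before it. Ccnb2 had 3 CCAAT boxes in this stretch, and its 2 TTTGAA matches lay outside it, 167 bases before the start and at base 5 after it. The letters and the size of the response did not go together in every member: Bub3, with estimates near 0, held both motifs, whereas none of the 4 was found in the window of Nuf2, which fell steeply. The 34 members with TTTGAA had a median log2 change of -0.49 in ChimP3V3 cells and -0.51 in gp130:IL-6R cells, and the 12 with a window but without TTTGAA had -0.50 and -0.54, though 7 of those 12 held TTTAAA or TTCGAA. These matches are descriptions of letters, not of bound factors.

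**Figure D2:**
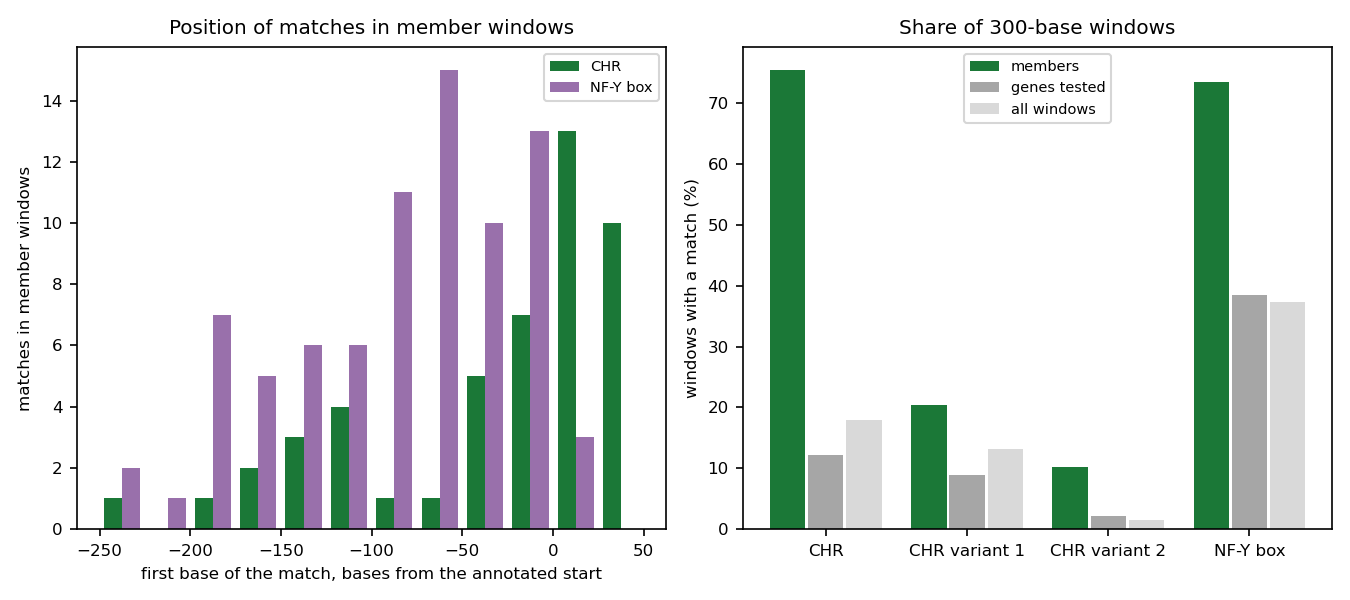
Left, number of matches of the CHR letters (TTTGAA) and the NF-Y box (CCAAT) in the 49 member windows by position (x axis, bases from the annotated start). Right, percentage of windows with a match (variant 1 is TTTAAA, variant 2 TTCGAA): the CHR letters are in 75.5% of member windows, against 12.2% of windows of genes tested and 17.9% of all windows.

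Top2a (topoisomerase II alpha, which untangles chromosomes before they part; ENSMUSG00000020914, chr11:98883769-98915015, minus strand on GRCm39, as all gene coordinates below) and Mki67 (the proliferation antigen Ki-67, which coats mitotic chromosomes; ENSMUSG00000031004, chr7:135291513-135318090, minus strand) fell in both lines. In ChimP3V3 cells Top2a stood at 564, 567, 583 and 563 CPM under IL-6, against 757, 729, 755 and 769 CPM in medium. Top2a stood at 555, 546, 572 and 586 CPM in gp130:IL-6R cells under IL-6, against 779.6, 817, 859.9 and 781 CPM in medium. No library under IL-6 reached a library in medium in either line. The fall of Top2a was 1.32-fold in ChimP3V3 cells (log2 -0.40 ± 0.04 SE, adjusted p = 1.78e-11) and 1.43-fold in gp130:IL-6R cells (log2 -0.52 ± 0.04 SE, adjusted p = 7.91e-16). Mki67 measured 298, 269, 271 and 259 CPM under IL-6, against 354, 353, 353 and 418 CPM in medium, in ChimP3V3 cells. Mki67 had 279.8, 297, 293 and 294 CPM in gp130:IL-6R cells under IL-6, against 417, 406, 400.0 and 395 CPM in medium. One medium library of ChimP3V3 cells stood above its 3 others for Mki67, and the groups did not overlap in either line. Mki67 fell 1.35-fold in ChimP3V3 cells (adjusted p = 1.07e-08) and 1.39-fold in gp130:IL-6R cells (adjusted p = 3.46e-11).

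Of the 8 cyclins, CDK1 and regulators of mitotic entry, 7 fell in ChimP3V3 cells and 6 in gp130:IL-6R cells. Cdk1, the kinase that drives cells into mitosis (ENSMUSG00000019942, chr10:69170976-69188768, minus strand), had 216, 216, 234 and 200.2 CPM in ChimP3V3 cells under IL-6, against 271, 271, 301 and 274 CPM in medium. Cdk1 had 233, 225, 203 and 221 CPM in gp130:IL-6R cells under IL-6, against 270.5, 259, 286 and 278 CPM in medium. The groups stood apart in both lines, by a modest fold: 1.29-fold lower in ChimP3V3 cells (log2 -0.36 ± 0.05 SE, adjusted p = 9.04e-07) and 1.24-fold lower in gp130:IL-6R cells (log2 -0.31 ± 0.05 SE, adjusted p = 3.65e-06). Ccna2 (cyclin A2, the CDK partner of S phase and G2; ENSMUSG00000027715, chr3:36619014-36626299, minus strand) ranged over 153, 162, 154 and 163 CPM under IL-6, against 217, 227, 218 and 219 CPM in medium, in ChimP3V3 cells. The gp130:IL-6R libraries held 183, 173, 205 and 182 CPM of Ccna2 under IL-6, against 315, 313, 318 and 302 CPM in medium. The groups did not overlap within a line, and the medium libraries of gp130:IL-6R cells were above all others. Ccna2 fell 1.39-fold in ChimP3V3 cells (adjusted p = 7.45e-09) and 1.68-fold in gp130:IL-6R cells (adjusted p = 8.84e-17).

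Of cyclins B1, B2 and F, B2 and F were called for the difference of responses between the lines and B1 was not (adjusted p = 0.764). Ccnb1 (cyclin B1, the partner of CDK1 in mitosis) averaged 143 ± 3.8 CPM under IL-6 and 194 ± 5.57 CPM in medium in ChimP3V3 cells (SD, n = 4), and 257 ± 12.1 CPM under IL-6 and 359 ± 7.48 CPM in medium in gp130:IL-6R cells. It fell 1.36-fold in ChimP3V3 cells (adjusted p = 9.74e-08) and 1.40-fold in gp130:IL-6R cells (adjusted p = 7.11e-13). Ccnb2 (cyclin B2, another partner of CDK1; ENSMUSG00000032218, chr9:70314974-70328829, minus strand) had 94.7, 92.9, 104 and 79.6 CPM in ChimP3V3 cells under IL-6, against 107, 96.8, 105 and 102 CPM in medium. Ccnb2 had 84.4, 73.3, 93.5 and 89.0 CPM in gp130:IL-6R cells under IL-6, against 141, 152, 131 and 152 CPM in medium. The ChimP3V3 groups overlapped and the gp130:IL-6R groups did not. Its change was log2 -0.14 ± 0.08 SE (adjusted p = 0.227) in ChimP3V3 cells, and it fell 1.69-fold in gp130:IL-6R cells (log2 -0.76 ± 0.08 SE, adjusted p = 2.99e-11). Ccnf (cyclin F, part of a ubiquitin ligase that acts in G2; ENSMUSG00000072082, chr17:24441172-24470458, minus strand) showed the opposite split. It stood at 38.3, 30.5, 32.6 and 23.3 CPM in ChimP3V3 cells under IL-6, against 49.3, 56.4, 48.9 and 53.0 CPM in medium. The gp130:IL-6R libraries gave 51.1, 59.6, 61.6 and 56.8 CPM for Ccnf under IL-6, against 57.3, 57.7, 66.3 and 64.4 CPM in medium. Here the ChimP3V3 groups stood apart and the gp130:IL-6R groups overlapped. Ccnf fell 1.66-fold in ChimP3V3 cells (log2 -0.73 ± 0.13 SE, adjusted p = 1.69e-05) and had a log2 change of -0.10 in gp130:IL-6R cells (adjusted p = 0.473).

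Cdc25b, a phosphatase that switches CDK1 on, fell 1.40-fold in ChimP3V3 cells (adjusted p = 2.8e-05) and 1.26-fold in gp130:IL-6R cells (adjusted p = 0.000603). Foxm1, the transcription factor that drives many G2 and mitosis genes, fell 1.49-fold (adjusted p = 3.3e-05) and 1.22-fold (adjusted p = 0.0138) in the same lines. The call of Foxm1 in gp130:IL-6R cells was lost without replicate 1 of IL-6 (adjusted p = 0.0854) or replicate 1 of medium (adjusted p = 0.0851). Cdc25c, a related phosphatase, was the member with the fewest reads, at 8.15 ± 2.14 CPM under IL-6 and 13.5 ± 1.87 CPM in medium in ChimP3V3 cells, and 7.61 ± 2.71 CPM under IL-6 and 11.3 ± 3.33 CPM in medium in gp130:IL-6R cells (SD, n = 4). It was just past the threshold in ChimP3V3 cells (1.64-fold lower, adjusted p = 0.0495) and short of it in gp130:IL-6R cells (1.46-fold lower, adjusted p = 0.106). The ChimP3V3 call of Cdc25c was lost with DESeq2 (adjusted p = 0.123) and without any of 7 libraries left out in turn.

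All 7 mitotic kinases and passenger complex genes fell in both lines. Aurkb, the kinase of the chromosomal passenger complex, which corrects faulty attachments to the spindle (ENSMUSG00000020897, chr11:68936473-68942490, plus strand), changed most. In ChimP3V3 cells Aurkb had 73.7, 65.4, 74.5 and 61.9 CPM under IL-6, against 115, 117, 109.5 and 115 CPM in medium. Aurkb had 79.7, 65.4, 73.4 and 67.6 CPM in gp130:IL-6R cells under IL-6, against 115, 135, 129.8 and 139.9 CPM in medium. The groups were well apart in both lines, with falls of 1.66-fold in ChimP3V3 cells (log2 -0.73 ± 0.08 SE, adjusted p = 5.46e-09) and 1.82-fold in gp130:IL-6R cells (log2 -0.86 ± 0.08 SE, adjusted p = 2.15e-12). Birc5 (survivin, which tethers the complex to centromeres; ENSMUSG00000017716, chr11:117740077-117746569, plus strand) gave 223, 220.02, 216 and 222 CPM under IL-6, against 318, 292, 326 and 313 CPM in medium, in ChimP3V3 cells. The gp130:IL-6R values of Birc5 were 232, 224, 226 and 222 CPM under IL-6, against 338, 336, 329 and 351 CPM in medium. Its libraries under IL-6 lay close together, below every medium library. Birc5 fell 1.41-fold in ChimP3V3 cells (adjusted p = 2.94e-11) and 1.5-fold in gp130:IL-6R cells (adjusted p = 1.53e-14).

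Incenp, the scaffold of the passenger complex (ENSMUSG00000024660, chr19:9849660-9876915, minus strand), had 151, 108, 136 and 129 CPM in ChimP3V3 cells under IL-6, against 203, 184, 202 and 198 CPM in medium. Incenp had 188, 190.3, 173 and 199 CPM in gp130:IL-6R cells under IL-6, against 225, 232, 230.3 and 218 CPM in medium. The groups stood apart in both lines, by more in ChimP3V3 cells, where Incenp fell 1.5-fold (adjusted p = 7.95e-09), than in gp130:IL-6R cells, where it fell 1.21-fold (adjusted p = 0.000167). Cdca8 (borealin, the remaining subunit) fell 1.33-fold in ChimP3V3 cells and 1.42-fold in gp130:IL-6R cells. Plk1, a kinase of spindle assembly and mitotic entry, fell 1.44-fold and 1.49-fold. Aurka, which matures centrosomes and the spindle poles, fell 1.46-fold and 1.42-fold. Plk4, which starts centriole duplication, fell 1.41-fold and 1.26-fold, in the same order of lines.

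Of the 5 spindle checkpoint genes 4 fell in each line, and Bub3 was called in neither. Bub1, a checkpoint kinase at the kinetochore (ENSMUSG00000027379, chr2:127643036-127673785, minus strand), measured 54.9, 54.3, 50.4 and 57.1 CPM in ChimP3V3 cells under IL-6, against 89.6, 92.9, 97.8 and 102 CPM in medium. Its gp130:IL-6R libraries measured 93.3, 87.6, 92.8 and 104 CPM under IL-6, against 158, 162, 157 and 164 CPM in medium. The groups did not overlap within a line, and ChimP3V3 medium lay within the range of gp130:IL-6R cells under IL-6. Bub1 fell 1.76-fold in ChimP3V3 cells (log2 -0.82 ± 0.09 SE, adjusted p = 6.81e-10) and 1.69-fold in gp130:IL-6R cells (log2 -0.76 ± 0.06 SE, adjusted p = 3.09e-13). Bub1b (BubR1, which holds CDC20 in the checkpoint complex; ENSMUSG00000040084, chr2:118428692-118472072, plus strand) had 39.0, 42.4, 51.2 and 44.2 CPM in ChimP3V3 cells under IL-6, against 56.3, 59.6, 60.6 and 48.2 CPM in medium. Bub1b had 67.4, 66.8, 58.2 and 72.6 CPM in gp130:IL-6R cells under IL-6, against 119.7, 126, 151 and 116 CPM in medium. The ChimP3V3 groups overlapped at their edges, while the gp130:IL-6R groups were far apart. Bub1b fell 1.92-fold in gp130:IL-6R cells (log2 -0.94 ± 0.09 SE, adjusted p = 3.78e-12). In ChimP3V3 cells it was 1.27-fold lower (log2 -0.35 ± 0.12 SE, adjusted p = 0.0273), and this call did not hold under DESeq2 (adjusted p = 0.0535), nor without replicate 1 of IL-6 (adjusted p = 0.0689) or replicates 2 or 3 of medium (adjusted p = 0.0785 and 0.0774).

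Bub3, a checkpoint protein that anchors BUB1 and BUBR1 at kinetochores (ENSMUSG00000066979, chr7:131161951-131173624, plus strand), stood at 322, 293, 295 and 302 CPM in ChimP3V3 cells under IL-6, against 336, 303, 341 and 332 CPM in medium. Bub3 had 297, 303, 288 and 295 CPM in gp130:IL-6R cells under IL-6, against 318, 296, 321 and 340.3 CPM in medium. Groups overlapped in both lines, with log2 changes of -0.11 (adjusted p = 0.0849) and -0.11 (adjusted p = 0.0535). The calls of Bub3 depended on the setting: with library totals alone as the scaling, it passed the threshold in ChimP3V3 cells (adjusted p = 0.00571) and in gp130:IL-6R cells (adjusted p = 0.0185), and without replicate 1 of ChimP3V3 cells under IL-6 its change there was log2 -0.17 (adjusted p = 0.0104). Mad2l1 (MAD2, which binds CDC20 while kinetochores are unattached) averaged 207 ± 7.05 CPM under IL-6 and 336 ± 12.7 CPM in medium in ChimP3V3 cells, and 162 ± 9.43 CPM under IL-6 and 238 ± 11.2 CPM in medium in gp130:IL-6R cells (SD, n = 4). It fell 1.62-fold in ChimP3V3 cells (adjusted p = 7.97e-15) and 1.47-fold in gp130:IL-6R cells (adjusted p = 2.21e-11). Ttk (MPS1, the kinase that starts checkpoint signalling) fell 1.42-fold (adjusted p = 1.17e-05) and 1.76-fold (adjusted p = 1.53e-12) in the same order.

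All 9 centromere and kinetochore genes fell in both lines. Nuf2, part of the NDC80 complex that grips microtubules (ENSMUSG00000026683, chr1:169325503-169359033, minus strand), had 81.7, 76.6, 76.0 and 66.7 CPM in ChimP3V3 cells under IL-6, against 126, 129, 121 and 122 CPM in medium. The gp130:IL-6R libraries had 65.4, 76.1, 66.5 and 68.8 CPM of Nuf2 under IL-6, against 146, 132, 147 and 152 CPM in medium. Both gaps were wider than the spread within groups. Nuf2 fell 1.65-fold in ChimP3V3 cells (log2 -0.72 ± 0.08 SE, adjusted p = 9.15e-10) and 2.08-fold in gp130:IL-6R cells (log2 -1.06 ± 0.07 SE, adjusted p = 1.14e-15). The other 3 subunits of the complex were Ndc80, Spc24 and Spc25. Spc25 (ENSMUSG00000005233, chr2:69024239-69036538, minus strand) gave 119, 115, 114 and 114 CPM under IL-6, against 163, 169, 184 and 190.1 CPM in medium, in ChimP3V3 cells. Spc25 gave 139.6, 138, 145 and 153 CPM in gp130:IL-6R cells under IL-6, against 176, 169, 187 and 181 CPM in medium. The groups stood apart in both lines, and Spc25 fell 1.52-fold in ChimP3V3 cells (adjusted p = 7.75e-10) and 1.23-fold in gp130:IL-6R cells (adjusted p = 3.59e-05). Ndc80 fell 1.41-fold and 1.47-fold, and Spc24 fell 1.57-fold and 1.60-fold, in ChimP3V3 and gp130:IL-6R cells.

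Cenpf, a large protein of the outer kinetochore (ENSMUSG00000026605, chr1:189372803-189420283, minus strand), measured 241, 245, 269.9 and 256 CPM in ChimP3V3 cells under IL-6, against 318, 317, 319.5 and 367 CPM in medium. Its gp130:IL-6R values were 261, 267, 286 and 261 CPM under IL-6, against 365, 358, 358 and 336 CPM in medium. One ChimP3V3 medium library was well above the other 3, and the groups did not overlap. Cenpf fell 1.31-fold in ChimP3V3 cells (adjusted p = 1.12e-07) and 1.32-fold in gp130:IL-6R cells (adjusted p = 3.25e-09). Knl1, the scaffold on which BUB1 and BUBR1 gather, fell 1.63-fold and 1.72-fold in the same lines. Cenpe, a kinetochore motor that aligns chromosomes, fell 1.60-fold and 1.45-fold. Cenpa, the histone variant of centromeres, fell 1.40-fold and 1.29-fold. Sgo1 (shugoshin, which protects cohesion at centromeres) fell 1.28-fold and 1.26-fold.

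All 5 spindle kinesins fell in both lines, and Kif4 had the largest estimate of the 55 genes in each. Kif4 (chromokinesin KIF4A, which acts on chromosome arms and the central spindle; ENSMUSG00000034311, chrX:99669343-99770820, plus strand) had 17.4, 15.6, 17.8 and 21.7 CPM in ChimP3V3 cells under IL-6, against 35.4, 29.5, 39.3 and 41.4 CPM in medium. Kif4 had 23.8, 16.5, 21.5 and 18.3 CPM in gp130:IL-6R cells under IL-6, against 49.0, 53.5, 59.2 and 42.0 CPM in medium. Every library under IL-6 was below every library in medium, although the gene was among the least abundant members. Kif4 fell 2.01-fold in ChimP3V3 cells (log2 -1.0 ± 0.17 SE, adjusted p = 6.96e-06) and 2.53-fold in gp130:IL-6R cells (log2 -1.34 ± 0.14 SE, adjusted p = 2.18e-10). Kif20b (MPP1, a motor of the midzone and of abscission; ENSMUSG00000024795, chr19:34899761-34953145, plus strand), the most abundant kinesin, stood at 159.8, 185, 167 and 159 CPM in ChimP3V3 cells under IL-6, against 213, 192, 215 and 234 CPM in medium. The gp130:IL-6R values of Kif20b were 288, 258, 297 and 312 CPM under IL-6, against 359, 348, 329 and 318 CPM in medium. The groups lay close to each other without overlapping. Kif20b fell 1.27-fold in ChimP3V3 cells (adjusted p = 0.000114) and 1.17-fold in gp130:IL-6R cells (adjusted p = 0.000294). Kif11 (Eg5, which pushes spindle poles apart) fell 1.57-fold and 1.55-fold. Kif15, which shares in that work, fell 1.57-fold and 1.80-fold. Kif2c (MCAK, which takes microtubules apart at centromeres) fell 1.38-fold and 1.60-fold.

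**Figure D3:**
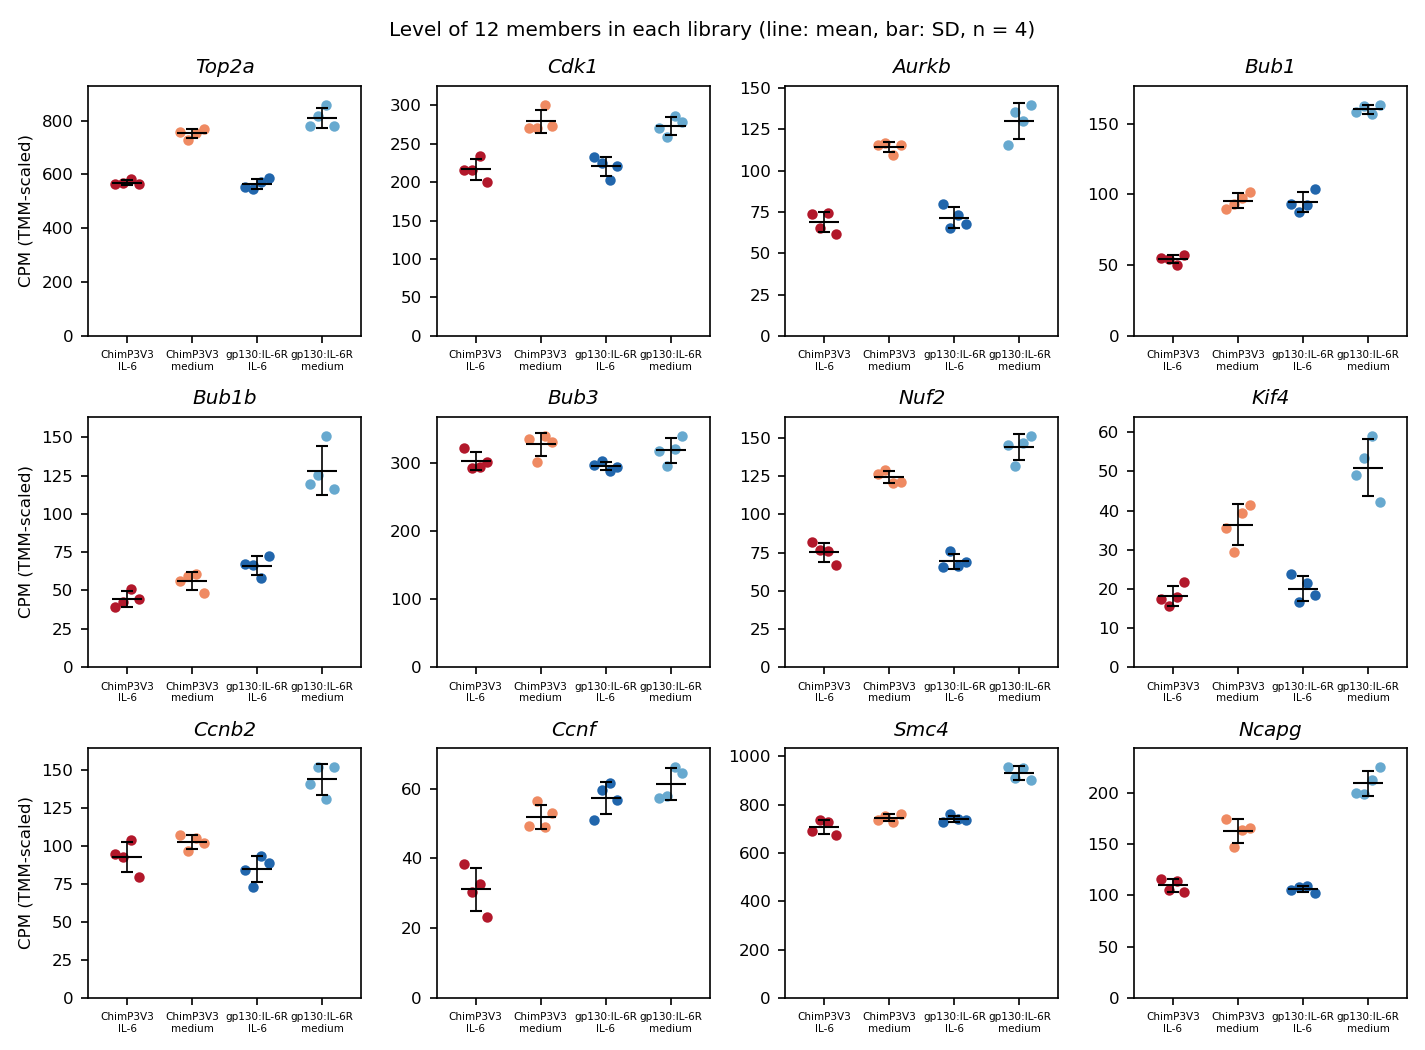
Level (CPM, scaled with TMM factors, y axis from 0) of 12 members in each of the 16 libraries, by group; points are libraries, lines means and bars SD (n = 4). Nuf2 and Kif4 are lower under IL-6 in both lines, Ccnb2 and Smc4 differ mainly in gp130:IL-6R cells, Ccnf mainly in ChimP3V3 cells, and the groups of Bub3 overlap.

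The 4 spindle microtubule proteins fell in both lines. Tpx2, which activates Aurora A and nucleates microtubules around chromosomes (ENSMUSG00000027469, chr2:152689884-152737241, plus strand), measured 124, 96.6, 114 and 108 CPM in ChimP3V3 cells under IL-6, against 177, 164, 159 and 189 CPM in medium. Its gp130:IL-6R values were 170.2, 146, 163 and 151 CPM under IL-6, against 257, 268, 250.3 and 276 CPM in medium. The libraries under IL-6 lay below those in medium in both lines, and those of gp130:IL-6R cells overlapped ChimP3V3 medium. Tpx2 fell 1.56-fold in ChimP3V3 cells (log2 -0.64 ± 0.07 SE, adjusted p = 4.47e-09) and 1.67-fold in gp130:IL-6R cells (log2 -0.74 ± 0.06 SE, adjusted p = 5.45e-14). Nusap1, a protein that bundles spindle microtubules (ENSMUSG00000027306, chr2:119448779-119481725, plus strand), gave 141, 134, 152 and 133 CPM under IL-6, against 192, 189.7, 211 and 191 CPM in medium, in ChimP3V3 cells. Nusap1 gave 175, 160.2, 189 and 188 CPM in gp130:IL-6R cells under IL-6, against 276, 281, 272 and 264 CPM in medium. Neither line had overlapping groups. Nusap1 fell 1.40-fold in ChimP3V3 cells (adjusted p = 5.91e-08) and 1.53-fold in gp130:IL-6R cells (adjusted p = 4.64e-13). Hmmr, a hyaluronan receptor that also works at spindle poles, fell 1.55-fold and 1.52-fold, and Prc1, which bundles the midzone, fell 1.24-fold and 1.30-fold.

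Condensin, which folds chromosomes for division, had 4 of its 5 subunit genes fall in ChimP3V3 cells and all 5 in gp130:IL-6R cells, and 3 of the 5 were called for the difference of responses, where 23.9% of all genes tested were. Smc4, a core subunit and the most abundant member (ENSMUSG00000034349, chr3:68912071-68941956, plus strand), had 693, 738, 728 and 675 CPM in ChimP3V3 cells under IL-6, against 738, 754, 731 and 761.9 CPM in medium. Smc4 had 731, 761, 740.4 and 737 CPM in gp130:IL-6R cells under IL-6, against 958, 912, 951 and 904 CPM in medium. Only the medium libraries of gp130:IL-6R cells stood apart, and the ChimP3V3 groups overlapped. Smc4 fell 1.25-fold in gp130:IL-6R cells (log2 -0.33 ± 0.03 SE, adjusted p = 3.57e-11) and changed by log2 -0.07 ± 0.04 SE in ChimP3V3 cells (adjusted p = 0.117). That estimate passed the threshold with library totals alone (adjusted p = 0.00139), with no filter (adjusted p = 0.0291), with only the ChimP3V3 libraries fitted (adjusted p = 0.0124), and without replicate 2 (adjusted p = 0.0159) or replicate 3 (adjusted p = 0.0222) of ChimP3V3 cells under IL-6. Smc2, the partner of SMC4 (ENSMUSG00000028312, chr4:52439243-52488260, plus strand), measured 589, 584, 605 and 572 CPM under IL-6, against 665, 699, 706 and 685 CPM in medium, in ChimP3V3 cells. Its gp130:IL-6R values were 429, 449.6, 442 and 446 CPM under IL-6, against 622, 635, 615 and 635 CPM in medium. The groups of Smc2 were tight and apart in both lines. Smc2 fell 1.17-fold in ChimP3V3 cells (adjusted p = 9.25e-07) and 1.42-fold in gp130:IL-6R cells (adjusted p = 1.53e-15).

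Ncapg, a subunit of condensin I (ENSMUSG00000015880, chr5:45827261-45857888, plus strand), stood at 116, 106, 114 and 103 CPM in ChimP3V3 cells under IL-6, against 174, 147, 164 and 166 CPM in medium. Ncapg stood at 105, 108, 109 and 102 CPM in gp130:IL-6R cells under IL-6, against 199, 199, 212 and 225 CPM in medium. The groups did not overlap within a line. The lines overlapped under IL-6 but not in medium. Ncapg fell 1.48-fold in ChimP3V3 cells (log2 -0.57 ± 0.07 SE, adjusted p = 1.53e-08) and 1.97-fold in gp130:IL-6R cells (log2 -0.98 ± 0.06 SE, adjusted p = 1.06e-16). Ncapd2 and Ncaph, the remaining condensin I subunits, fell 1.26-fold and 1.47-fold in ChimP3V3 cells, and 1.39-fold and 1.65-fold in gp130:IL-6R cells.

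The 5 genes grouped here under anaphase and sister separation fell in both lines. Cdca3 was placed in this group although, as described below, it is tied to destruction of WEE1. Cdc20, the activator of the anaphase-promoting complex and the target of the checkpoint (ENSMUSG00000006398, chr4:118290098-118294549, minus strand), had 124, 99.6, 126 and 138 CPM in ChimP3V3 cells under IL-6, against 161, 149, 147 and 162 CPM in medium. The gp130:IL-6R libraries had 138, 145, 138 and 141 CPM of Cdc20 under IL-6, against 197, 188, 218 and 202 CPM in medium. The groups did not overlap in either line, and replicate 2 of ChimP3V3 cells under IL-6 was the lowest of the 16 libraries. Cdc20 fell 1.27-fold in ChimP3V3 cells (adjusted p = 0.000256) and 1.43-fold in gp130:IL-6R cells (adjusted p = 6.33e-09). Espl1 (separase, which cuts cohesin at anaphase; ENSMUSG00000058290, chr15:102204701-102232792, plus strand) gave 26.7, 32.7, 23.3 and 18.5 CPM under IL-6, against 37.5, 44.9, 42.7 and 38.7 CPM in medium, in ChimP3V3 cells. Espl1 gave 32.0, 32.3, 26.3 and 34.7 CPM in gp130:IL-6R cells under IL-6, against 46.5, 64.9, 52.0 and 51.2 CPM in medium. No libraries overlapped between conditions. Espl1 fell 1.61-fold in ChimP3V3 cells (log2 -0.69 ± 0.15 SE, adjusted p = 0.000474) and 1.71-fold in gp130:IL-6R cells (log2 -0.78 ± 0.13 SE, adjusted p = 3.1e-06).

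Cdca3 (TOME-1, tied to destruction of the CDK1 inhibitor WEE1; ENSMUSG00000023505, chr6:124806510-124810664, plus strand) measured 73.7, 73.6, 82.2 and 48.2 CPM in ChimP3V3 cells under IL-6, against 106, 89.1, 104 and 104 CPM in medium. Cdca3 measured 50.4, 68.2, 54.7 and 53.7 CPM in gp130:IL-6R cells under IL-6, against 108, 94.4, 109.8 and 115 CPM in medium. Replicate 4 of ChimP3V3 cells under IL-6 and replicate 2 of ChimP3V3 medium were each below the rest of their group, but no groups overlapped within a line. Cdca3 fell 1.44-fold in ChimP3V3 cells (adjusted p = 9.12e-05) and 1.88-fold in gp130:IL-6R cells (adjusted p = 8.5e-10). Ube2c, the ubiquitin-conjugating enzyme of the anaphase-promoting complex, fell 1.45-fold and 1.25-fold. Pttg1 (securin, which restrains separase) fell 1.37-fold and 1.22-fold.

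The 5 genes of cytokinesis fell in both lines. Kif20a (MKLP2, which carries the passenger complex to the midzone) had 131, 117, 126 and 133 CPM in ChimP3V3 cells under IL-6, against 169.5, 173, 200.4 and 204 CPM in medium. Kif20a had 133, 138, 130.2 and 123 CPM in gp130:IL-6R cells under IL-6, against 231, 216, 194 and 218 CPM in medium. The levels under IL-6 were alike in the 2 lines and below every medium library. Kif20a fell 1.47-fold in ChimP3V3 cells (log2 -0.56 ± 0.07 SE, adjusted p = 2.79e-08) and 1.65-fold in gp130:IL-6R cells (log2 -0.72 ± 0.06 SE, adjusted p = 1.86e-12). Racgap1, the GTPase-activating subunit of centralspindlin (ENSMUSG00000023015, chr15:99518377-99549537, minus strand), stood at 179, 184, 199 and 195 CPM in ChimP3V3 cells under IL-6, against 239.7, 233, 242 and 251 CPM in medium. Its gp130:IL-6R values were 147, 157, 149.6 and 146 CPM under IL-6, against 196, 224, 209 and 206 CPM in medium. No group of Racgap1 overlapped the medium group of its own line, and the level was higher in ChimP3V3 cells in either condition. Racgap1 fell 1.28-fold in ChimP3V3 cells (adjusted p = 1.17e-06) and 1.40-fold in gp130:IL-6R cells (adjusted p = 1.45e-09).

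Ect2, the exchange factor that switches on RhoA for the cleavage furrow (ENSMUSG00000027699, chr3:27151371-27208027, minus strand), gave 61.4, 67.6, 67.5 and 69.1 CPM under IL-6, against 101, 89.7, 99.9 and 105 CPM in medium, in ChimP3V3 cells. Ect2 gave 103, 124, 128 and 114 CPM in gp130:IL-6R cells under IL-6, against 167, 149, 149.7 and 158 CPM in medium. The groups did not overlap within a line, and ChimP3V3 medium reached only the lowest gp130:IL-6R library under IL-6. Ect2 fell 1.49-fold in ChimP3V3 cells (adjusted p = 1.89e-06) and 1.33-fold in gp130:IL-6R cells (adjusted p = 1.25e-06). Kif23 (MKLP1, the motor of centralspindlin) fell 1.43-fold and 1.31-fold. Anln (anillin, which organises the contractile ring) fell 1.48-fold in gp130:IL-6R cells (adjusted p = 3e-08). It was 1.19-fold lower in ChimP3V3 cells (adjusted p = 0.0202), which DESeq2 did not call (adjusted p = 0.0547) and which was not called without replicate 4 of IL-6 (adjusted p = 0.0695).

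The responses of the lines were next compared with each other. Across the 55 genes the log2 changes had a Pearson correlation of 0.455 and a Spearman correlation of 0.387, as a description, since genes are not independent and share the library's depth. The fall was larger in gp130:IL-6R cells for 33 members and in ChimP3V3 cells for the others. The difference of the responses itself (ChimP3V3 minus gp130:IL-6R, the interaction term of the model) was called for 12 of the 55 members, or 21.8%, where 23.9% of all genes tested were called. By direction, 9 members had the smaller fall in ChimP3V3 cells, where 12.4% of all genes were called in that direction, and 3 had the larger fall there, where 11.5% were. Members thus differed in response between the lines about as often as genes in general.

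The 9 members with the smaller fall in ChimP3V3 cells were Ccnb2 (difference 0.62 log2, adjusted p = 5.24e-05), Bub1b (0.59, adjusted p = 0.00309), Ncapg (0.41, adjusted p = 0.00109), Nuf2 (0.33, adjusted p = 0.0339), Anln (0.32, adjusted p = 0.0353), Ttk (0.31, adjusted p = 0.0417), Smc2 (0.28, adjusted p = 3.24e-05), Ccna2 (0.27, adjusted p = 0.00911) and Smc4 (0.25, adjusted p = 8.94e-05). Thus 3 of the 5 condensin genes and 2 of the 5 checkpoint genes were among them. The 3 with the larger fall in ChimP3V3 cells were Ccnf (-0.63, adjusted p = 0.00338), Incenp (-0.31, adjusted p = 0.00886) and Spc25 (-0.31, adjusted p = 0.0121). Calls near the threshold were unstable. The difference of Ttk was lost with DESeq2 (adjusted p = 0.113), that of Nuf2 likewise (adjusted p = 0.114) and that of Anln likewise (adjusted p = 0.126). With 1 library left out in turn, Ttk was lost without any of 9 libraries (adjusted p up to 0.260, where its difference was 0.185 log2 without replicate 1 of gp130:IL-6R cells under IL-6), Nuf2 without any of 8 (up to 0.175) and Anln without any of 8 (up to 0.195), among them replicate 1 of IL-6 in each line for all 3. That of Ccna2 was lost without replicate 4 of gp130:IL-6R cells under IL-6 (adjusted p = 0.0560), and without replicate 2 (adjusted p = 0.0593) or replicate 4 (adjusted p = 0.0601) of ChimP3V3 cells under IL-6. Without that gp130:IL-6R library, 5 members in place of 9 had a called smaller fall in ChimP3V3 cells.

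**Figure D4:**
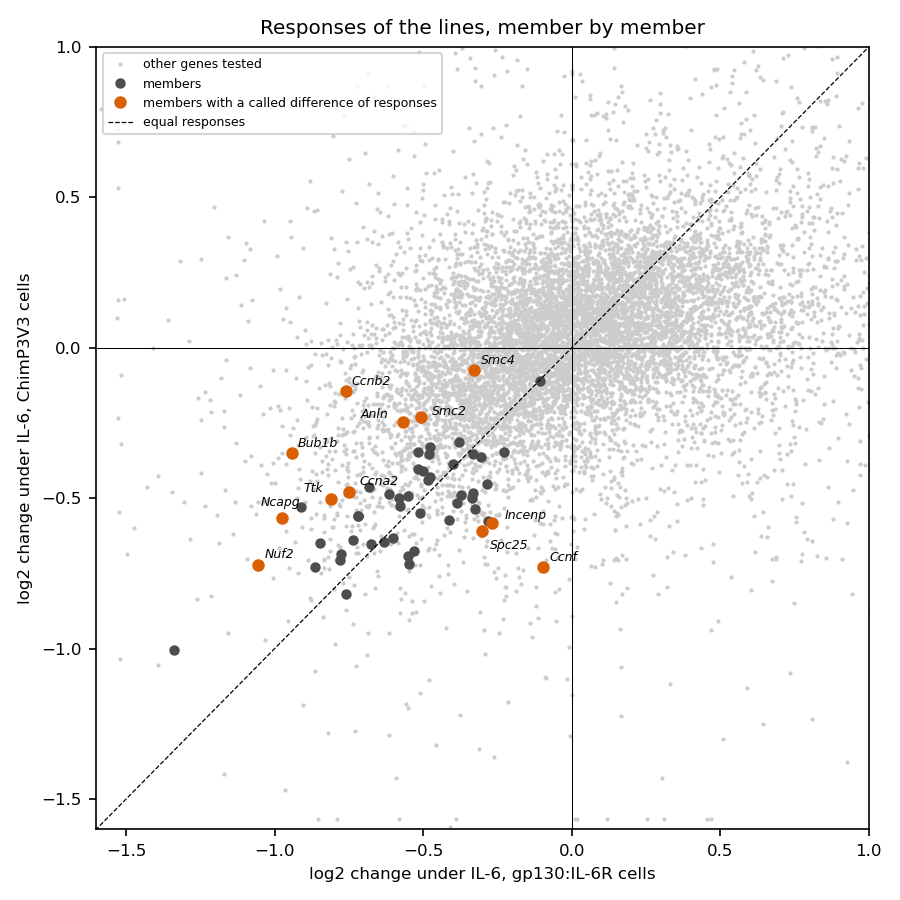
Log2 change under IL-6 in gp130:IL-6R cells (x axis) and in ChimP3V3 cells (y axis); grey points are the other genes tested that lie within the axes, dark points members, orange points the 12 members with a called difference of responses. The members lie in the lower left, on both sides of the dashed line of equal responses.

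Levels also differed between the lines before any IL-6. In medium, 44 members differed, where 65.1% of all genes tested did: 39 were lower and 5 higher in ChimP3V3 cells, where 33.4% of all genes were lower and 31.7% higher. Under IL-6, 34 members differed, where 62.8% of all genes tested did: 28 were lower and 6 higher in ChimP3V3 cells, where 31.6% of all genes tested were lower and 31.2% higher. Members lower in ChimP3V3 cells in both conditions numbered 23 of 55, where 23.0% of all genes tested were. These comparisons use the same libraries as the responses, and each line may carry differences that have nothing to do with its receptor, which cannot be told apart here.

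Named after their values were seen, the members with the largest differences between lines in medium were as follows. Bub1b averaged 56.2 ± 5.62 CPM in ChimP3V3 medium and 128 ± 15.8 CPM in gp130:IL-6R medium (SD, n = 4), 2.27-fold lower (adjusted p = 5.26e-15). Hmmr averaged 152 ± 16.2 CPM and 309 ± 13.0 CPM in the same groups, 2.04-fold lower in ChimP3V3 cells (adjusted p = 1.85e-19). Ccnb1, Knl1 and Aurka were 1.85-fold, 1.84-fold and 1.80-fold lower in ChimP3V3 medium. Under IL-6 these genes stayed lower in ChimP3V3 cells, by 1.5-fold for Bub1b, 2.08-fold for Hmmr, 1.80-fold for Ccnb1, 1.75-fold for Knl1 and 1.85-fold for Aurka. The 5 that were higher in ChimP3V3 medium were Mad2l1 (1.41-fold, adjusted p = 1.12e-12), Cdca8 (1.22-fold), Spc24 (1.19-fold), Racgap1 (1.15-fold) and Smc2 (1.10-fold). All 5 were also higher in ChimP3V3 cells under IL-6, together with Cdca3 (1.23-fold, adjusted p = 0.0255). Spc24 was lost in medium without replicate 2 of ChimP3V3 medium (adjusted p = 0.0538) and under IL-6 without any of 6 libraries left out in turn, with DESeq2 (adjusted p = 0.0641) and with no filter (adjusted p = 0.0640). So the checkpoint proteins that bind CDC20 did not go together: Bub1b RNA was lower and Mad2l1 RNA higher in ChimP3V3 cells.

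**Figure D5:**
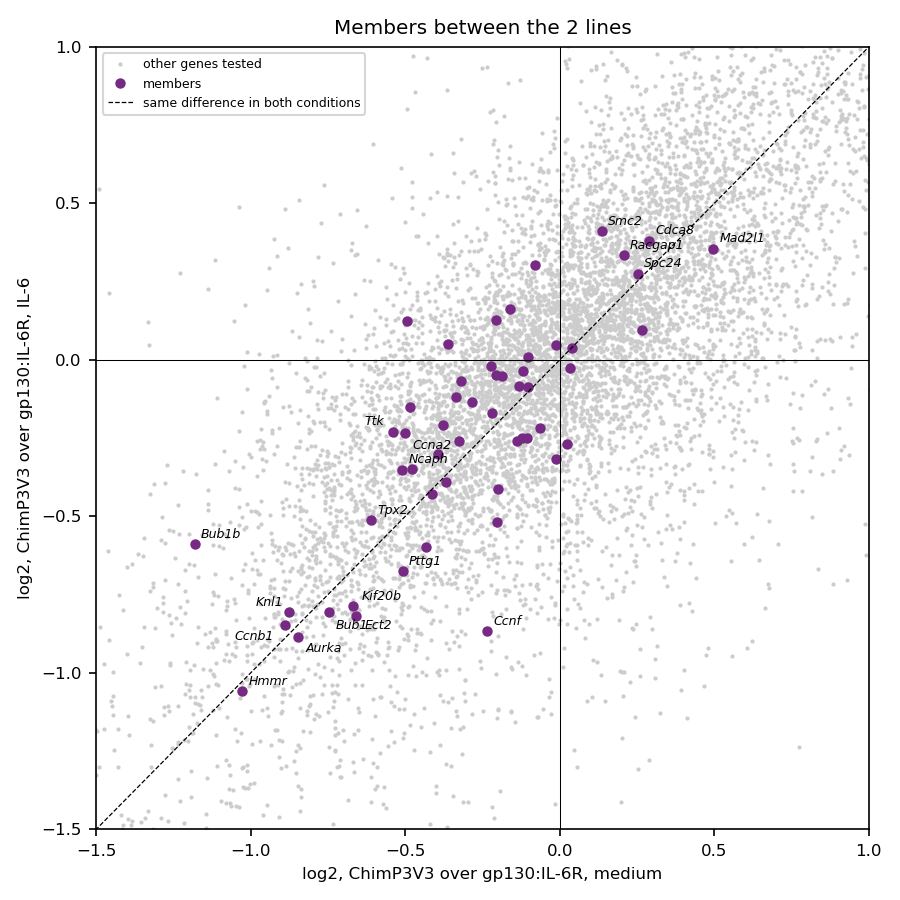
Log2 difference between the lines (ChimP3V3 over gp130:IL-6R) in medium (x axis) and under IL-6 (y axis) for the 55 members (purple) and the other genes tested that lie within the axes (grey). Bub1b, Hmmr, Ccnb1, Knl1 and Aurka lie farthest to the left, and Mad2l1 farthest to the right; the dashed line marks the same difference in both conditions.

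Other genes of cell division were read from lists that do not contain the members but were also chosen with earlier results known. They were read against the same shares of all genes tested: 11.4% fell and 16.2% rose in ChimP3V3 cells, and 24.3% fell and 25.7% rose in gp130:IL-6R cells. Of 79 other mitosis genes 77 were tested: 53 fell and 0 rose in ChimP3V3 cells (median log2 -0.46), and 52 fell and 2 rose in gp130:IL-6R cells (median log2 -0.41). Among them Kif22, a chromokinesin, fell 1.79-fold in ChimP3V3 cells (adjusted p = 5.87e-08), and Cenpk, a centromere protein, fell 1.84-fold in gp130:IL-6R cells (adjusted p = 3.06e-14). The 2 that rose in gp130:IL-6R cells were Fam83d, a spindle protein (1.56-fold, adjusted p = 1.94e-06), and Mad2l1bp, which takes MAD2 off its partners (1.25-fold, adjusted p = 0.00997). Fam83d went the other way in ChimP3V3 cells, where it fell (log2 -0.55, adjusted p = 0.000654). Of 17 subunits and regulators of the anaphase-promoting complex, 9 fell and 0 rose in ChimP3V3 cells, and 5 fell and 1 rose in gp130:IL-6R cells, with medians of -0.27 and -0.14. The 5 of 17 in gp130:IL-6R cells is near the 24.3% of all genes. The scaffold subunit Anapc1 fell 1.29-fold in ChimP3V3 cells (adjusted p = 0.000522) and 1.47-fold in gp130:IL-6R cells (adjusted p = 1.19e-09). The 1 that rose was Anapc16 (1.23-fold, adjusted p = 0.00825). Of 12 cohesin genes 5 fell and 0 rose in ChimP3V3 cells, and 5 fell and 1 rose in gp130:IL-6R cells, with medians of -0.08 and -0.11, where 11.4% and 24.3% of all genes tested fell. Rad21, the cohesin subunit that separase cuts, fell 1.12-fold in ChimP3V3 cells (adjusted p = 0.000671) and 1.21-fold in gp130:IL-6R cells (adjusted p = 1.10e-07). Esco1, a cohesin acetyltransferase, was the 1 that rose (1.24-fold, adjusted p = 0.00134).

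Regulators upstream of these genes, the 12 genes of MuvB, DREAM and B-MYB, had 5 that fell and 1 that rose in ChimP3V3 cells, where 11.4% of all genes fell and 16.2% rose. In gp130:IL-6R cells 6 of them fell and 0 rose, where 24.3% of all genes fell and 25.7% rose, and the medians were -0.19 and -0.19. Mybl2 (B-MYB) averaged 27.8 ± 4.45 CPM under IL-6 and 46.4 ± 2.89 CPM in medium in ChimP3V3 cells (SD, n = 4). In gp130:IL-6R cells Mybl2 averaged 44.6 ± 2.44 CPM under IL-6 and 86.3 ± 3.84 CPM in medium. It fell 1.66-fold in ChimP3V3 cells (adjusted p = 1.36e-05) and 1.93-fold in gp130:IL-6R cells (adjusted p = 2.41e-11). Rbl1 (p107, a pocket protein of DREAM) fell 1.44-fold in ChimP3V3 cells (adjusted p = 3.12e-05) and 2.12-fold in gp130:IL-6R cells (adjusted p = 5.15e-14). Tfdp2, an E2F partner, was the 1 that rose in ChimP3V3 cells (1.13-fold, adjusted p = 0.0124), and it fell in gp130:IL-6R cells (log2 -0.20, adjusted p = 0.0137). Genes of the preceding phase fell as widely: of 30 G1/S replication genes 26 fell and 2 rose in ChimP3V3 cells, and 26 fell and 1 rose in gp130:IL-6R cells, with medians of -0.50 and -0.53. Rrm1, the large subunit of ribonucleotide reductase, fell 1.47-fold in ChimP3V3 cells (adjusted p = 3.28e-10) and 1.81-fold in gp130:IL-6R cells (adjusted p = 3.03e-17). Gins2, of the replicative helicase (1.15-fold, adjusted p = 0.000193), and Rfc2, of the clamp loader (1.24-fold, adjusted p = 0.000236), rose in ChimP3V3 cells. Rfc2 fell in gp130:IL-6R cells (log2 -0.37, adjusted p = 0.000173).

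Counting could blur some of these values where genes overlap. The strand setting of the authors' counting is not given in the sources used here, and 17 members overlap another gene of the table, 14 of them a gene on the opposite strand, among them Ccna2 with Exosc9, Cdc20 with Elovl1, Nusap1 with Oip5, Kif4 with Pdzd11, Ncapg with Lcorl and Kif20a with Cdc23. Of the 38 members without such an overlap, 36 fell in ChimP3V3 cells and 37 in gp130:IL-6R cells.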

How the data were processed

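RNA of 16 Ba/F3 libraries was extracted with NucleoSpin RNA columns and, from 100 ng of total RNA, made into 3' libraries (Lexogen QuantSeq 3' FWD) read as single 100-base reads on a NextSeq2000, per the labels' protocols. The deposited table holds total counts per gene, whole numbers as the authors made them; CLC Genomics Workbench 23.0.4, GRCm39 and Ensembl release 107 are named in the submitters' processing notes. A further 48 per-sample columns were not used. Genes with too few counts (filterByExpr, minimum count 10, minimum total 15) were removed, which left 9540 genes with 99.64% of the counts. Counts were scaled with TMM factors and fitted over all 16 libraries in 4 groups with edgeR 4.0.16 (quasi-likelihood test, 12 residual degrees of freedom, R 4.3.3); p-values were Benjamini-Hochberg adjusted over the 9540 genes and called under 0.05, two-sided. Each comparison is a contrast: IL-6 over medium within a line, ChimP3V3 minus gp130:IL-6R for that response, and ChimP3V3 over gp130:IL-6R within a condition. CPM values use the TMM factors and are not corrected for length, since 3' libraries give 1 tag per transcript. With 1275112 to 1650348 counts per library, a count of 0 allows 1.82 to 2.35 CPM (3 counts), which covers counting error only.

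The members and all lists were chosen with earlier results of these data known. By rule, values in every library are given for 28 members: in each of the 10 roles the one with the highest mean CPM and the one with the largest absolute log2 change in each line, and the 10 members with the smallest p for the difference of responses. From the other lists the rule took up to 4 genes per direction and line by p, of which those printed are examples; some genes of these lists are not reported here. Members with the largest differences between lines and some named with their overlap or instability were chosen after their values were seen. The procedure was tested on simulated data. Promoter windows came from RefSeq (GRCm38.p6) and were matched by symbol. Alternatives were RLE factors, library totals only, no filter, only the groups compared, the replicate number as a block, DESeq2 1.42.0, limma 3.58.1 on log2(CPM + 1), counts thinned to 1275112 per library and leaving out each library in turn. Libraries of a group that agreed within sampling noise were merged in an alternative added after the data were seen.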

Additional observations from a re-analysis of the deposited data

Results flagged for a closer look

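Levels of the 28 members given by library and of the summed members were checked for single libraries that stood apart within their group of 4. Of 116 groups checked 6 were picked out, and chance gives about 1 in 20. Of these, 5 lay in ChimP3V3 medium. Replicate 4 had the highest Mki67 there, 418 CPM with its others at 353 to 354 CPM. Replicate 4 also had the highest Cenpf, 367 CPM with its others at 317 to 319.5 CPM. Replicate 3 of that group had the highest Cdk1, 301 CPM with its others at 271 to 274 CPM, and the highest Nusap1, 211 CPM with its others at 189.7 to 192 CPM. Replicate 2 of ChimP3V3 medium had the lowest Cdca3, 89.1 CPM with its others at 104 to 106 CPM. The summed level of the 55 members was highest in 1 gp130:IL-6R medium library, 12421 CPM with its others at 12227 to 12247 CPM.

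The response to IL-6 differed between the lines for 12 members by the interaction term (ChimP3V3 minus gp130:IL-6R, edgeR, adjusted p under 0.05). On the log2 scale these differences were 0.62 for Ccnb2, 0.59 for Bub1b, 0.41 for Ncapg, 0.33 for Nuf2, 0.32 for Anln, 0.31 for Ttk, 0.28 for Smc2, 0.27 for Ccna2, 0.25 for Smc4, -0.31 for Spc25, -0.31 for Incenp and -0.63 for Ccnf.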

How the results depend on the processing

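The fall under IL-6 held its direction and its count in both lines. With each library left out in turn, 50 to 53 members fell in ChimP3V3 cells and 51 to 53 in gp130:IL-6R cells, and 0 rose. Under the other settings 49 (DESeq2) to 54 fell in ChimP3V3 cells and 52 to 53 in gp130:IL-6R cells. The difference of responses was called for 8 to 12 members with 1 library left out and for 9 to 13 under the other settings. Members with a smaller fall in ChimP3V3 cells numbered 5 to 9 with 1 library left out, with 5 only without replicate 4 of gp130:IL-6R cells under IL-6; the cause was not tested. Between the lines, 40 to 44 members were called in medium and 29 to 34 under IL-6 with 1 library left out. Signs were followed for the responses of all 55 members, the 12 called differences of responses and 13 members that differed between the lines in medium. None of these changed sign under any setting. Of the values of single members under the alternatives, 907 of the response in ChimP3V3 cells kept their side of the threshold, 18 in 3 genes lost it and 10 in 2 genes gained it. In gp130:IL-6R cells 927 kept it, 2 in 1 gene lost it and 6 in 1 gene gained it. For the difference of responses only the 12 called members were followed, so a gained call could not appear. Of their values 248 kept the call and 40 in 5 genes lost it. The difference of Spc25 was lost with thinned counts (adjusted p = 0.0899).

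Same-numbered libraries did not deviate together (correlations of -0.0789 to 0.116), so the numbers were not taken as pairs. With the replicate number as a block, 51 members fell in ChimP3V3 cells and 53 in gp130:IL-6R cells, 12 differed in response, and 43 and 34 differed between lines in medium and under IL-6. The block ended the call of Cdc25c in ChimP3V3 cells (adjusted p = 0.0514) and gave one to Bub3 in gp130:IL-6R cells (adjusted p = 0.0433). Of 24 pairs of libraries within groups, 9 differed by no more than sampling noise (chi-square per gene 0.964 to 1.17 over all pairs). Counting such libraries as 1, an alternative chosen after seeing the data, left 3, 2, 3 and 3 libraries in ChimP3V3 IL-6, ChimP3V3 medium, gp130:IL-6R IL-6 and gp130:IL-6R medium. With these, 51 members fell in ChimP3V3 cells and 52 in gp130:IL-6R cells, 13 differed in response, and 43 and 35 differed between the lines. Depth limits the rarest member, Cdc25c, most, at a mean of 10.1 CPM.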
